A study of Mus musculus with 75 samples.

Results

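Matrix glycoproteins and proteoglycans form the part of the extracellular matrix that surrounds and organises the collagens. Glycoproteins such as fibronectin build the provisional matrix to which cells attach, microfibril proteins hold and present growth factors, matricellular proteins alter how cells hold on to the matrix without being structural themselves, and small leucine-rich proteoglycans coat collagen fibrils and set their spacing. In the kidney these proteins are made largely by interstitial fibroblasts and pericytes, and they accumulate in the interstitium after injury. The 10 genes described here were chosen by symbol: fibronectin (Fn1), fibrillin 1 (Fbn1) and fibulin 2 (Fbln2), the matricellular genes tenascin C (Tnc), periostin (Postn), Sparc and thrombospondin 1 (Thbs1), and the proteoglycan genes decorin (Dcn), biglycan (Bgn) and lumican (Lum). The choice was made with earlier results of these data known, and the study had named Fn1, Tnc and Dcn among the genes raised by obstruction. Shares over all genes are therefore printed as a scale, and counts of members beside them are no test of the list. All 10 were found among the 32245 genes of the count table, and their values were read in all 75 libraries, which fall into 12 groups.

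Whole kidneys of adult mice were taken 3 days after unilateral ureter obstruction (UUO), in which 1 ureter is tied off so that the kidney behind it is injured and becomes fibrotic. Obstructed kidneys (UUO) were set against contralateral kidneys (CL), and all mice were operated on and given carprofen. The study placed some kidneys of sham-operated mice in the PbWT CL group, and the labels do not mark which. The first arm held C57BL6/J or wild-type mice injected with ABTAA, an antibody that clusters angiopoietin-2 and thereby activates the endothelial receptor TIE2 (ABT, 7 CL and 7 UUO libraries), or with human IgG Fc (IgG, 8 and 8). The second held mice in which tamoxifen and Cdh5-CreERT2, active in endothelial cells, deleted floxed Veptp (gene symbol Ptprb), a phosphatase that restrains TIE2 (VeKO, 6 CL and 8 UUO), and noninduced Veptp wt/lox mice that carried the same Cre (VeWT, 7 and 8). The third held mice in which tamoxifen and the ubiquitous Actb-CreERT2 deleted floxed Pdgfb, the ligand that recruits and stimulates pericytes and fibroblasts (PbKO, 4 and 4), and Cre-negative Pdgfb wt/lox or lox/lox mice (PbWT, 4 and 4). The genetic arms were on a mixed background, and both sexes were used. Labels do not tie libraries to mice, so p-values measure the spread between libraries, and whether the 8 VeWT UUO libraries come from separate mice cannot be told.

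Libraries held 172827 to 2341800 counts (median 757897), so that 1 count was worth 0.427 CPM in the deepest and 5.79 CPM in the shallowest. Several libraries stood apart or went against their labels. Pdgfb itself was lower in PbKO than in PbWT in UUO (33.5 to 40.6 against 43.0 to 57.5 CPM) but not in CL (16.7 to 25.0 against 4.45 to 19.9 CPM), and Ptprb was 33.3 ± 18.9 CPM in VeKO UUO against 51.2 ± 28.0 CPM in VeWT UUO (mean ± SD), with overlapping ranges. In other assays the study reported less Pdgfb expression in both kidneys of its Pdgfb knockout mice and less VEPTP protein in its Veptp knockout mice. Groups are written here as the libraries are labelled. All 4 PbKO UUO libraries, and 24 of all 75, held at least 10 counts of Xist and also of Y-linked genes. Library names came with or without the character _ in the first 2 arms, and the summed share of 2 genes, Gm42418 and AY036118, was 3.89% to 5.91% and 0.325% to 0.778% with it against 7.32% to 18.7% and 9.18% to 21.8% without it. In the Veptp arm 4 library numbers were labelled with 1 genotype in CL and the other in UUO. The library labelled VeKO CL replicate 2 held 244.5 CPM of Havcr1, a gene of injured proximal tubule, where the other 5 of its group held 4.59 to 15.4 CPM.

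In GENCODE M21 (GRCm38, the mm10 build the study used) Fn1 lies at chr1:71585520-71653200, Thbs1 at chr2:118111876-118127133, Fbn1 at chr2:125300594-125507993, Postn at chr3:54361109-54391037, Tnc at chr4:63959785-64047015, Fbln2 at chr6:91212455-91272540, Dcn at chr10:97479609-97518143, Lum at chr10:97565128-97572703, Sparc at chr11:55394500-55423183 and Bgn at chrX:73483602-73495933. Dcn and Lum are neighbours on chromosome 10. Fn1, Tnc, Thbs1 and Fbn1 each share exonic bases with 1 gene on the opposite strand (Apol7d, 8030451A03Rik, Gm29233 and Gm9913). The sources used here do not say whether strand was used in counting. Without it, reads of such overlapping pairs cannot be told apart.

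Because most members rose together in obstructed kidneys, the 250 bases before the start of transcription are shown for Tnc, Bgn and Postn, the 3 members for which a RefSeq promoter (GRCm38.p6) began within 10 bases of the GENCODE start and held no exon of the gene. Promoters were found for 6 of the 10 members, and those of Fbln2, Sparc and Fbn1 overlapped their own exons. Capitals mark matches, on either strand, to any of 7 motifs, namely the AP-1 motif TGANTCA, the cAMP response element (CRE) TGACGTCA, the TEAD motif CATTCC, the SMAD motif CAGAC, the CCAAT box, the TATA box TATAAA and the GC box GGGCGG. The windows are chr4:64047016-64047265 on the minus strand, chrX:73483351-73483600 on the plus strand and chr3:54360857-54361106 on the plus strand, printed 5′ to 3′.
Tnc: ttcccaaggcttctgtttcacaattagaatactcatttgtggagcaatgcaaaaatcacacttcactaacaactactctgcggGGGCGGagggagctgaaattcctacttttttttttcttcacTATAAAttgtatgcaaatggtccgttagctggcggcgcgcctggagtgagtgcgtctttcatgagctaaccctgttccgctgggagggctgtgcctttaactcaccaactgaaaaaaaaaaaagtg
Bgn: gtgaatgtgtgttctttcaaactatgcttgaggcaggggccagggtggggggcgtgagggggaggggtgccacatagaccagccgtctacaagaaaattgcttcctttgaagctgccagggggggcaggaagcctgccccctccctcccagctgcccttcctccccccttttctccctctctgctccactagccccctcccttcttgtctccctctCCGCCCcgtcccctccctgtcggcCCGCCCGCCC
Postn: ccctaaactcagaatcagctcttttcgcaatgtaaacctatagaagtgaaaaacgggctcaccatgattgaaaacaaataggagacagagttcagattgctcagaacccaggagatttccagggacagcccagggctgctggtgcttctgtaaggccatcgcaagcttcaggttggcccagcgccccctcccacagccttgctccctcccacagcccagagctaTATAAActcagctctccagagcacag
Tnc held TATAAA 126 to 121 bases before the start and 1 GC box, Postn held TATAAA 26 to 21 bases before it, and Bgn held 3 GC boxes (2 of them overlapping) and no TATAAA. The letters TATAAA occurred in 12.4% of 32851 mouse promoters of the same length and the GC box in 32.7%. AP-1, CRE, TEAD, SMAD and CCAAT letters, present in 6.75%, 1.55%, 12.6%, 42.2% and 33.8% of promoters, were in none of these 3 windows. Tnc and Postn each had another RefSeq start site, whose window is not printed. Those windows held SMAD letters, 70 to 66 bases before the start for Tnc and 191 to 187 for Postn. The window of Sparc held them as well. The windows share no motif across all 3 members, and the GC content ran from 44.8% (Tnc) through 52% (Postn) to 64.4% (Bgn).

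The first question was how far each gene moved in the obstructed kidney of the control mice. In the IgG arm all 8 members that passed the filter on low counts rose, by 2.37-fold (Thbs1) to 8.50-fold (Tnc), each past an adjusted p of 0.05 in edgeR's quasi-likelihood test, where 16.3% of the 9579 genes tested were called higher. All 10 rose in VeWT, where Lum and Postn were also tested, against 10.0% of 11916 genes. All 8 tested rose in PbWT, against 17.9% of 10923 genes. Lum and Postn passed the filter in the Veptp arm only, and a gene that passes because of the group in which it is high was bound to differ, so the counts and medians of the Veptp arm are read beside the levels, and support nothing for this pair. Fbln2 was low in CL too (at most 7.21 CPM in IgG and 7.66 CPM in ABT), so its UUO level carried it past the filter. Tnc and Fbn1, with CL medians of 5.35 and 12.4 CPM in IgG, passed mainly through UUO. A rise of these genes was favoured, so counts, medians and separations that include them are read beside their levels as well. The same holds for genes listed below that are low in 1 kidney type.

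**Figure D1:**
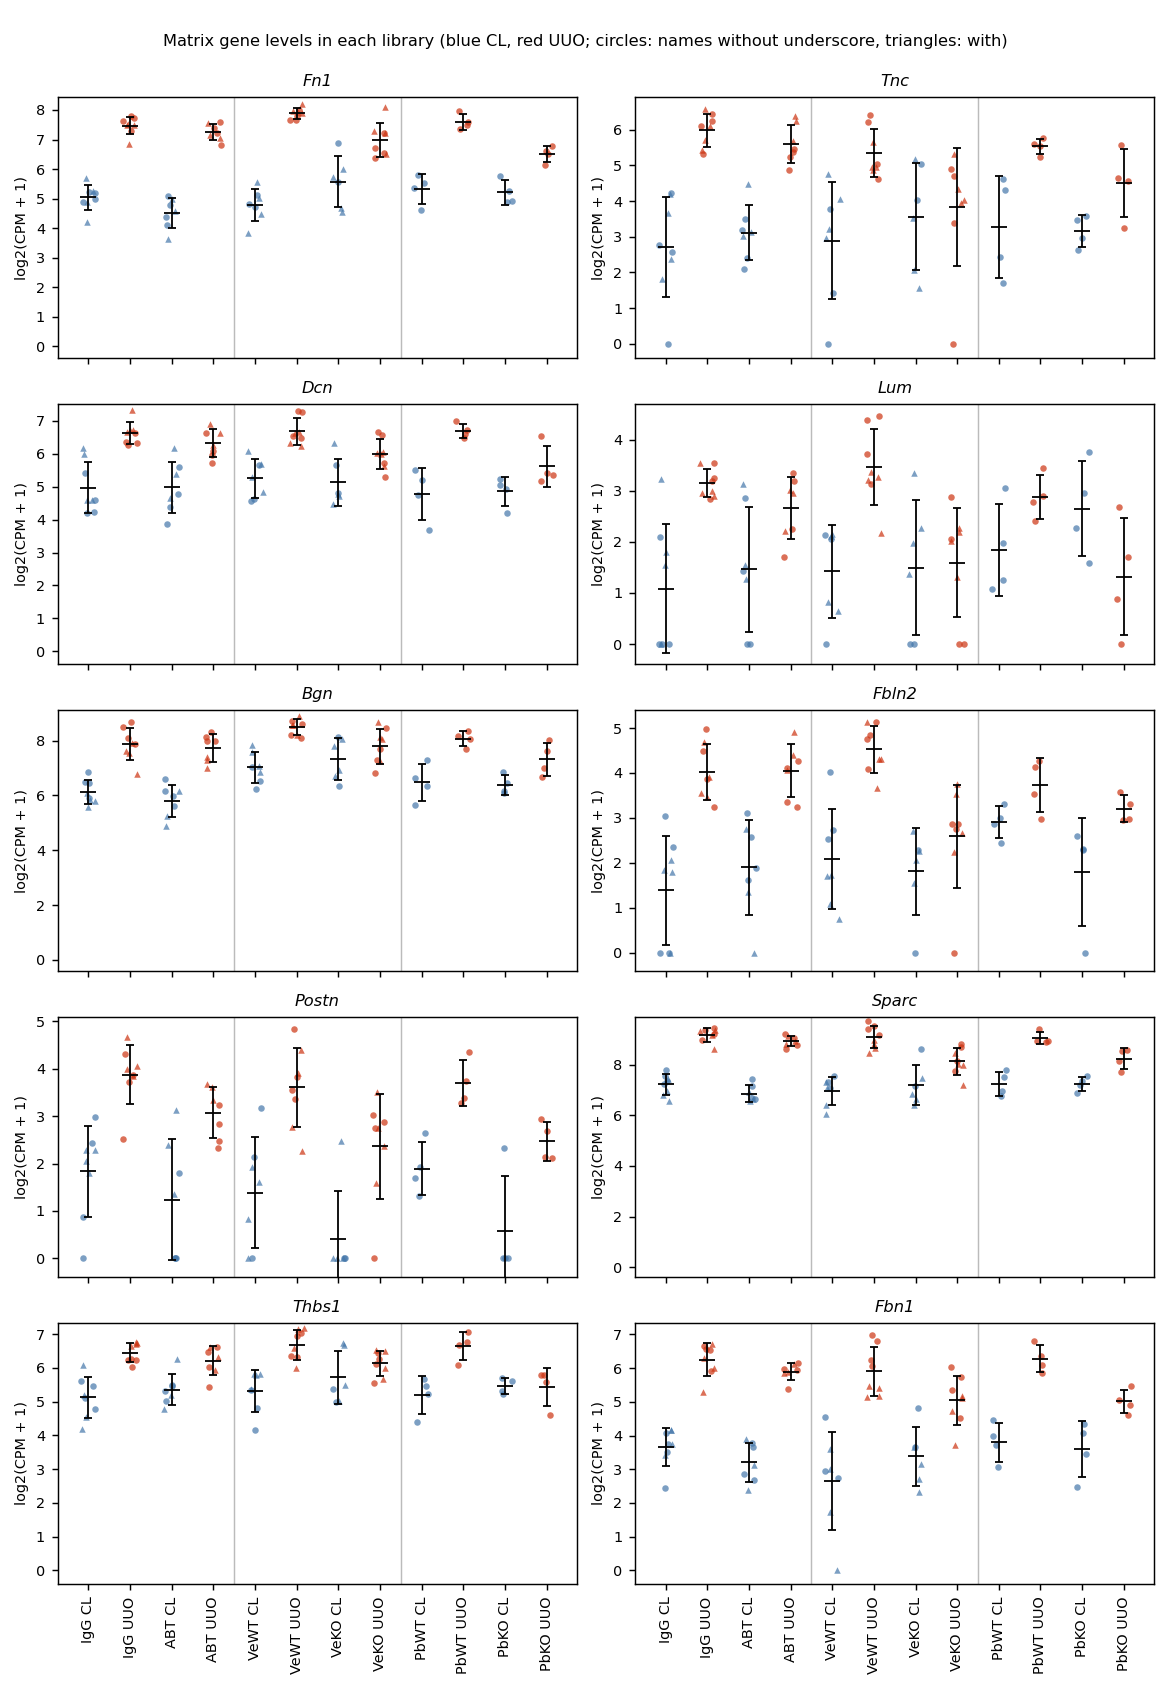
Level of each of the 10 genes in each of the 75 libraries, as log2(CPM + 1), by group, with the mean and SD in black. Red points (UUO) lie above blue points (CL) in the control groups IgG, VeWT and PbWT for most genes, and come closer to them in VeKO and PbKO. Lum, Fbln2, Postn, Tnc and Fbn1 include libraries at 0.

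Fn1 encodes fibronectin, the adhesive glycoprotein of provisional matrix. Its lowest, median and highest levels were 17.4, 33.3 and 50.8 CPM in IgG CL (n = 8) and 115, 180.4 and 220.3 CPM in IgG UUO (n = 8). No UUO library of the IgG, ABT, VeWT, PbWT or PbKO groups came down to its CL range, and the groups overlapped in VeKO. The log2 fold change was 2.42 ± 0.19 (SE; adjusted p = 3.33e-12, edgeR) in IgG, 3.08 ± 0.31 in VeWT (adjusted p = 1.38e-07) and 2.27 ± 0.21 in PbWT (adjusted p = 8.76e-09).

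Fbn1 encodes fibrillin 1, the main protein of microfibrils. It ran at 4.44, 12.4 and 16.9 CPM (lowest, median, highest) in IgG CL and 38.2, 84.5 and 105 CPM in IgG UUO, with no overlap. Its log2 fold change was 2.54 ± 0.22 in IgG, 3.10 ± 0.49 in VeWT and 2.49 ± 0.27 in PbWT (adjusted p = 7.80e-11, 3.74e-05 and 1.01e-07).

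Fbln2 encodes fibulin 2, which links elastic fibres and basement membranes to other matrix proteins. It was a low gene in CL, with 3 of 8 IgG CL libraries at 0 counts and a range of 0 to 7.21 CPM, against 8.53 to 30.6 CPM in IgG UUO. It rose by a log2 fold change of 2.26 ± 0.44 in IgG and 2.67 ± 0.45 in VeWT. In PbWT, where CL was 4.45 to 8.87 CPM and UUO 6.82 to 18.3 CPM with overlap, it was 1.08 ± 0.37 (adjusted p = 0.022). Leaving out PbWT CL replicate 1 or replicate 4 ended that last call. Fbln2 was still tested in 13 of the 16 single-library omissions, with an adjusted p of 0.00822 to 0.0765.

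Tnc encodes tenascin C, a matricellular protein made in injured and developing tissue. It held 0, 5.35 and 17.8 CPM in IgG CL and 38.9, 67.6 and 94.7 CPM in IgG UUO, the largest of the 8 IgG folds (log2 fold change 3.09 ± 0.34, adjusted p = 1.21e-08). The groups did not overlap there. In VeWT the CL level reached 26.3 CPM in 1 library and the UUO level began at 23.7 CPM, so the groups overlapped, and the log2 fold change was 1.90 ± 0.50 (adjusted p = 0.00651). In PbWT it was 1.91 ± 0.38 with no overlap.

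Postn encodes periostin, a matricellular protein of activated fibroblasts. It had 1 to 5 counts in PbWT CL libraries and 14 to 24 in PbWT UUO, or 2.23, 2.80, 1.48 and 5.25 CPM against 8.73, 12.4, 9.47 and 19.5 CPM, and the groups did not overlap. It was not tested in that arm. In VeWT, where it was, libraries held 0 to 7.97 CPM in CL and 3.78 to 27.4 CPM in UUO, and the log2 fold change was 2.49 ± 0.60 (adjusted p = 0.00257). In IgG the means were 3.19 ± 2.15 CPM in CL and 14.7 ± 5.61 CPM in UUO (SD, n = 8 each), and the ranges overlapped.

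Sparc, which encodes a collagen-binding matricellular protein, ran at 92.6, 156 and 219.9 CPM in IgG CL and 389, 609.9 and 704 CPM in IgG UUO. All UUO libraries of IgG, ABT, VeWT, PbWT and PbKO exceeded their CL libraries. The log2 fold changes in the control groups were close to each other, at 1.95 ± 0.16 in IgG, 2.12 ± 0.30 in VeWT and 1.76 ± 0.20 in PbWT (adjusted p = 2.02e-11, 9.53e-06 and 1.87e-07).

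Thbs1 encodes thrombospondin 1, a matricellular protein known to activate latent TGF-β. It had the smallest rise of the 8 members in IgG and of the 10 in VeWT. It held 17.4, 34.6 and 67.4 CPM in IgG CL and 64.5, 87.9 and 108 CPM in IgG UUO, and 1 CL library (67.4 CPM) exceeded the lowest UUO library (64.5 CPM). The log2 fold change was 1.24 ± 0.22 in IgG, 1.31 ± 0.27 in VeWT and 1.48 ± 0.23 in PbWT (adjusted p = 2.96e-05, 0.000782 and 1.37e-05).

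The proteoglycan genes followed. Dcn, which encodes decorin, held 17.2, 23.2 and 70.9 CPM in IgG CL and 75.8, 99.5 and 161 CPM in IgG UUO with no overlap (log2 fold change 1.47 ± 0.28, adjusted p = 7.32e-05). Bgn, which encodes biglycan, held 46.3, 63.1 and 115 CPM in IgG CL and 109, 239 and 410.0 CPM in IgG UUO, with 1 UUO library inside the CL range (log2 fold change 1.81 ± 0.24, adjusted p = 3.39e-07). In VeWT neither gene overlapped between kidneys, and the log2 fold changes were 1.35 ± 0.27 and 1.39 ± 0.28. In PbWT they were 1.80 ± 0.28 and 1.53 ± 0.26, again without overlap. Lum, which encodes lumican, had only 319 counts in all. It was at 0 in 4 of 8 IgG CL libraries and at 6.12 to 10.7 CPM in IgG UUO. In VeWT it held 0 to 3.45 CPM in CL and 3.49 to 21.2 CPM in UUO. Every UUO library lay above every CL library, the closest of them at 3.49 and 3.45 CPM, and the log2 fold change was 2.20 ± 0.49 (adjusted p = 0.00106).

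Over the tested members, complete separation with UUO higher was seen for 6 of 8 in IgG (background 4.28% of tested genes), 7 of 10 in VeWT (3.26%) and 7 of 8 in PbWT (16.5%). The median log2 fold change over the tested members was 2.10, 2.16 and 1.78 in these 3 groups, where the median over all tested genes was 0.02, -0.01 and 0.04. Without TMM factors, which rescale libraries for composition, the all-gene medians moved to 0.23, 0.14 and 0.41 and the share of called genes that were higher from 47.3%, 54.5% and 48.0% to 69.6%, 71.8% and 79.4%. In ABT, VeKO and PbKO that share moved from 50.3%, 56.3% and 62.0% to 66.7%, 71.7% and 78.9%. The 8, 10 and 8 tested members of IgG, VeWT and PbWT were called higher under both scalings.

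The summed level of 8 fibroblast and pericyte markers (Pdgfra, Pdgfrb, Col1a1, Col1a2, Col3a1, Dpt, Gli1 and Acta2) moved with the members. It was 148 to 265 CPM in IgG CL and 1017 to 1762 CPM in IgG UUO, without overlap in IgG, VeWT or PbWT. The sum of 8 tubule markers was 9712 to 13165 CPM in IgG CL and 4298 to 7178 CPM in IgG UUO, and that of 6 macrophage markers 84.9 to 124 and 207 to 322 CPM. In whole kidney, more cells of a type and more RNA per cell cannot be told apart. All 8 tubule markers were present in every group, so the tissue matched its label. The sum of 4 platelet markers, in a cell type that stores thrombospondin 1, was 4.97 to 20.2 CPM in IgG CL and 12.2 to 33.7 CPM in IgG UUO, and 3.34 to 9.78 and 14.8 to 26.3 CPM in PbWT CL and UUO. The sums of 6 fat markers, 5 urothelium markers and 4 endothelium markers overlapped between CL and UUO in IgG, VeWT and PbWT, with fat at 10.1 to 62.2 CPM in IgG CL and 2.14 to 498 CPM in IgG UUO. Of 4 adrenal cortex markers, 1 to 3 were at 0 in every group. The part of these cell types in the result was not tested.

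**Figure D2:**
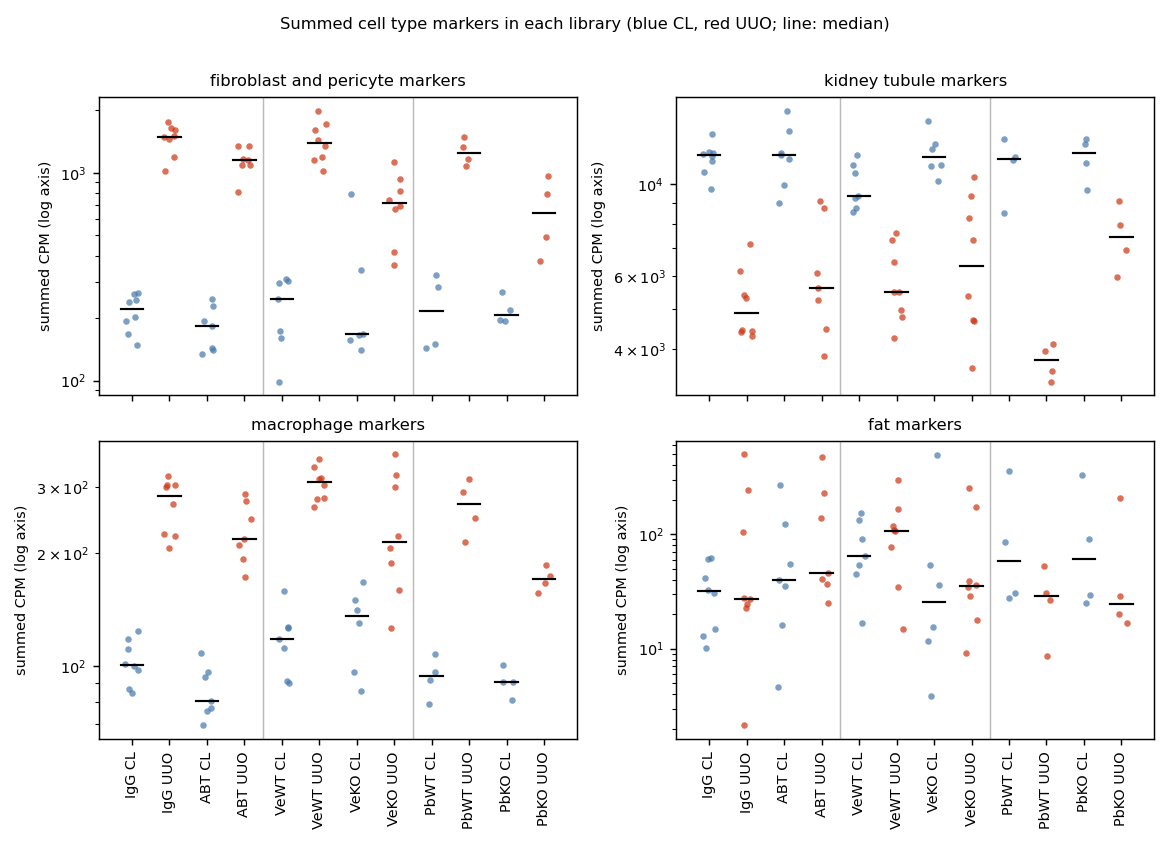
Summed CPM of markers of 4 cell types in each library on a log axis, with the group median as a line. Fibroblast and pericyte markers are higher in UUO (red) than in CL (blue) and their medians are lower in VeKO and PbKO UUO than in their controls, tubule markers run the other way, and fat markers vary widely within groups.

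The second question was whether TIE2 activation by ABTAA altered these genes. UUO raised all 8 tested members in the ABT group, where 12.6% of genes were called higher, with log2 fold changes from 0.87 ± 0.23 (Thbs1, adjusted p = 0.00394) to 2.76 ± 0.20 (Fn1, adjusted p = 8.79e-13). Complete separation was seen for 6 of 8, against a background of 4.00%. The difference in the UUO response between ABT and IgG was called for none of the 8 members or of the 9579 genes (edgeR quasi-likelihood test), with no member at an unadjusted p under 0.05.

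Between the obstructed kidneys themselves, ABT was lower than IgG for 7 of the 8 tested members, by small amounts. Fbn1 had the largest difference, with 40.6, 61.0 and 70.4 CPM in ABT UUO and 38.2, 84.5 and 105 CPM in IgG UUO (lowest, median, highest; n = 7 and 8). The ranges overlapped. Its log2 fold change was -0.38 ± 0.20 (unadjusted p = 0.0623, 95% interval -0.77 to 0.01). Tnc followed at -0.34 ± 0.28 (interval -0.89 to 0.21), Dcn at -0.30 ± 0.27, Sparc at -0.25 ± 0.16 (interval -0.57 to 0.06), Thbs1 at -0.23 ± 0.22, Fn1 at -0.21 ± 0.17 (interval -0.55 to 0.12) and Bgn at -0.17 ± 0.24. Fbln2 was the exception at 0.11 ± 0.35. None of the 8 reached an unadjusted p under 0.05, against 1.22% of genes that did so and were lower, and no gene of the 9579 passed the adjusted threshold. DESeq2 and the edgeR exact test also called no member. With the 3 ABT library numbers shared by CL and UUO as a block, so that these libraries enter only through the difference between kidneys, 2 of the 8 members were below an unadjusted p of 0.05 and none passed. They were Tnc, at -0.82 ± 0.28 (unadjusted p = 0.00664, adjusted p = 0.229), and Dcn, at -0.58 ± 0.27 (unadjusted p = 0.0392, adjusted p = 0.345). The ABT level in this fit rests mainly on the 4 ABT UUO libraries without _ in their names, while IgG keeps both forms. Tnc averaged 37.0 CPM in those 4 and 69.0 CPM in the 3 with _, against 66.8 and 63.9 CPM in IgG UUO. The fit therefore cannot tell ABTAA from name form, and its share of all genes below an unadjusted p of 0.05 is not given. Postn, not tested in this arm, averaged 7.90 ± 3.08 CPM in ABT UUO and 14.7 ± 5.61 CPM in IgG UUO, with overlapping ranges. The fibroblast and pericyte sum was 806 to 1354 CPM in ABT UUO and 1017 to 1762 CPM in IgG UUO.

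In the contralateral kidneys Fn1 and Sparc were lower in ABT at an unadjusted p under 0.05, as were 1.46% of all genes. Fn1 averaged 23.0 ± 7.88 CPM in ABT and 33.2 ± 9.54 CPM in IgG (log2 fold change -0.55 ± 0.21, unadjusted p = 0.0119), and Sparc 118 ± 29.4 and 153 ± 42.0 CPM (-0.38 ± 0.17, unadjusted p = 0.0285). The ranges overlapped for both and neither passed the adjusted threshold, which no gene did. In the fit with the paired block, where the ABT level again rests mainly on libraries without _, the unadjusted p was 0.0236 for Fn1 and 0.0706 for Sparc.

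The third question was whether loss of endothelial Veptp altered them. In VeKO the UUO response was called for 2 of 10 members, Fn1 and Fbn1, where 4.47% of 11916 genes were called higher. None of the 10 separated completely, and 0.688% of genes did. Fn1 held 22.5, 49.0 and 118 CPM in CL (n = 6) and 82.1, 125 and 276 CPM in UUO (n = 8), a log2 fold change of 1.42 ± 0.31 (adjusted p = 0.0036). Fbn1 held 3.96 to 27.2 CPM in CL and 12.2 to 64.5 CPM in UUO (1.82 ± 0.53, adjusted p = 0.0277), a call that ended without VeKO CL replicate 3, 5 or 6. Sparc (0.84 ± 0.30, adjusted p = 0.087) passed without VeKO CL replicate 2, the library high in Havcr1 (adjusted p = 0.00332). Dcn (0.77 ± 0.29, adjusted p = 0.111) and Postn (2.25 ± 0.81, adjusted p = 0.0791) passed without VeKO CL replicate 5, which held all 5 Postn counts of its group. Fbln2 (1.09 ± 0.50), Tnc (0.40 ± 0.54), Bgn (0.44 ± 0.29), Thbs1 (0.23 ± 0.28) and Lum (-0.25 ± 0.54) did not pass in any fit that left out 1 library and still tested them. Lum was tested in 17 of 29 such fits. Without the 4 numbers labelled with opposite genotypes 0 of 8 tested members were called in VeKO and 7 of 8 in VeWT, while calls over all genes went from 947 to 108 in VeKO and from 2194 to 815 in VeWT. The VeKO count went up with library-name form as a covariate, with a replicate block and with all 12 groups in 1 fit. Calls over all genes went up with it, as given under processing below.

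**Figure D3:**
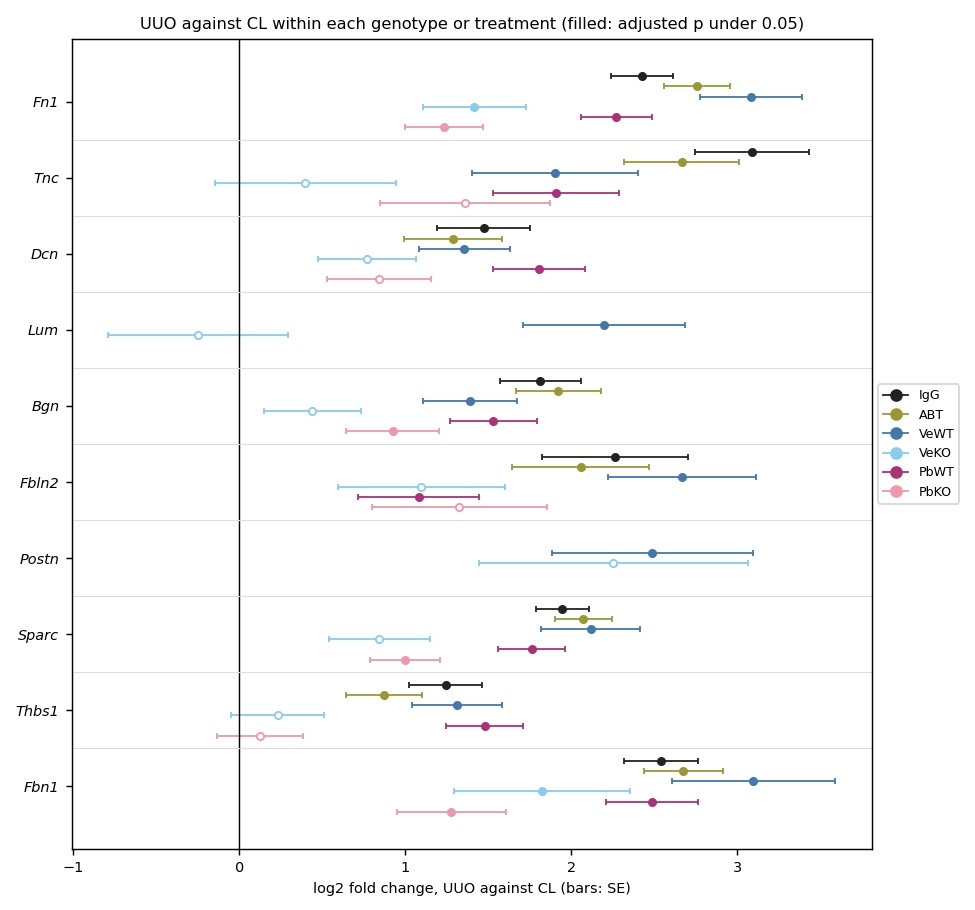
Log2 fold change of UUO against CL with its SE for each gene in the 6 genotype or treatment groups, filled where the adjusted p was under 0.05. IgG, ABT, VeWT and PbWT lie to the right for most genes, while VeKO and PbKO lie nearer 0, at 0.23 and 0.12 for Thbs1; Lum and Postn were tested in the Veptp arm only.

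Between obstructed kidneys the 8 members tested in every arm were all lower in VeKO than in VeWT, each at an unadjusted p under 0.05, and none passed the adjusted threshold. The background for that unadjusted rule was 2.05% of 11916 genes, and no gene passed the adjusted one (1 gene did in DESeq2 and 4 in the edgeR exact test). Fbln2 had the largest difference of these 8. It was at 0, 6.00 and 12.6 CPM (lowest, median, highest) in VeKO UUO and 11.6, 22.5 and 34.2 CPM in VeWT UUO, a log2 fold change of -1.65 ± 0.39 (unadjusted p = 0.000132, adjusted p = 0.747, the lowest of them). Only the edgeR exact test called a member here, 1 of 8 tested.

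Tnc came next, at 18.9 ± 12.0 CPM in VeKO UUO and 44.1 ± 23.2 CPM in VeWT UUO (-1.14 ± 0.47). Fbn1 differed by -0.95 ± 0.42 and Sparc by -0.94 ± 0.27, the latter with 147, 269 and 449 CPM in VeKO UUO and 354, 535 and 836 CPM in VeWT UUO. Fn1 was 82.1, 125 and 276 CPM in VeKO UUO and 199.6, 242 and 293 CPM in VeWT UUO (-0.78 ± 0.27, unadjusted p = 0.00662). Dcn, Bgn and Thbs1 had the smallest differences, at -0.69 ± 0.26, -0.60 ± 0.27 and -0.59 ± 0.26. Lum and Postn passed the filter in this arm alone and were highest in VeWT UUO, so that a difference from VeKO UUO was favoured, and their values are a description. Lum was at 0, 3.10 and 6.31 CPM in VeKO UUO, with 2 of 8 libraries at 0, and at 3.49, 9.05 and 21.2 CPM in VeWT UUO. Postn averaged 5.20 ± 3.19 CPM in VeKO UUO and 13.1 ± 7.69 CPM in VeWT UUO. Every one of the 10 genes overlapped between the groups.

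The direction was the same within each set of library names, which hold the libraries already counted and so add no separate support. Among libraries without the character _ in their names 7 of 7 tested members were lower in VeKO UUO, with a median log2 fold change of -1.04. With it 8 of 8 were lower (Lum aside), from -0.48 (Bgn) to -1.36 (Fbln2). Without the numbers of opposite genotype it was 8 of 8, with a median of -0.77. The fibroblast and pericyte sum was 359.8 to 1132 CPM in VeKO UUO (median 719.8) and 1025 to 1991 CPM in VeWT UUO (median 1395). The macrophage sum was 126 to 367 and 266 to 356 CPM and the tubule sum 3589 to 10418 and 4244 to 7596 CPM. The endothelium sum was 62.9 to 172 CPM in VeKO UUO (median 96.0) and 108 to 179 CPM in VeWT UUO (median 145). All 4 sums overlapped between the groups. Their part in the result was not tested.

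**Figure D4:**
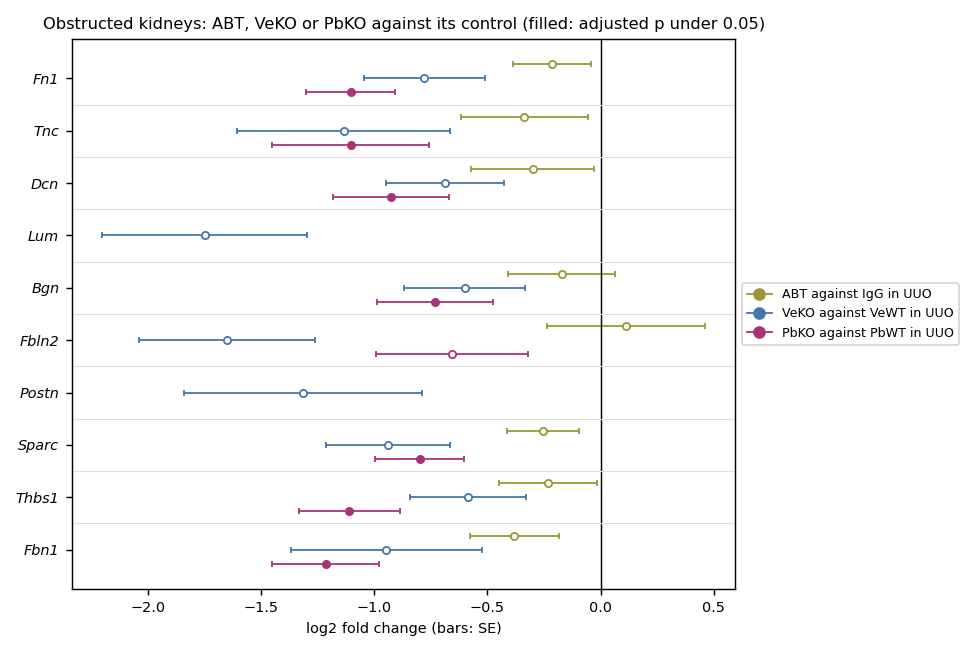
Log2 fold change between obstructed kidneys with its SE for ABT against IgG, VeKO against VeWT and PbKO against PbWT, filled where the adjusted p was under 0.05. All 10 VeKO and all 8 PbKO points lie below 0 and 7 PbKO points are filled, and the 8 ABT points lie between -0.38 and 0.11.

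The difference in the UUO response between VeKO and VeWT was below 0 for the 8 members tested in every arm and below an unadjusted p of 0.05 for 6 of them, where 1.63% of genes were. Fn1 had the lowest p (-1.67 ± 0.42, unadjusted p = 0.000364, adjusted p = 0.867), followed by Sparc (-1.27 ± 0.41, unadjusted p = 0.00426). For Lum the difference was -2.45 ± 0.74, a description only, since its level in VeWT UUO both let it pass the filter and enters the difference. The difference for Fbln2, at -1.57 ± 0.69 and counted among the 6, is a description for the same reason. That of Postn (-0.23 ± 1.53) is a description too. It rested on single contralateral libraries and was 3.06 without VeKO CL replicate 5 and 0.08 without VeWT CL replicate 7. No gene passed the adjusted threshold. In the contralateral kidneys Fn1 was higher in VeKO, at 54.4 ± 34.9 CPM against 28.4 ± 10.3 CPM (0.89 ± 0.32, unadjusted p = 0.00902), the only member below an unadjusted p of 0.05, where 1.01% of genes were and were higher. Its highest library, at 118 CPM, was VeKO CL replicate 2, and the log2 fold change was 0.56 without it. The other 9 ranged from -1.08 (Postn) to 0.70 (Lum).

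The last question was the effect of Pdgfb loss. In libraries labelled PbKO the UUO response was called for 4 of 8 tested members, Fn1, Fbn1, Sparc and Bgn, against 3.94% of genes, and 4 of 8 (Fn1, Fbn1, Sparc and Fbln2) separated completely, against 6.12%. Bgn sat at the threshold (adjusted p = 0.0487), and its call ended in 10 of 16 fits that each left out 1 library of the arm (adjusted p 0.0233 to 0.161). Fbn1 lost its call in 3 of them, without PbKO CL replicate 2 or 3 or PbKO UUO replicate 4. Thbs1 had the smallest response, with 38.5, 47.7, 36.3 and 50.9 CPM in the 4 CL libraries and 23.4, 53.8, 47.0 and 53.8 CPM in the 4 UUO libraries. These ranges overlapped and the log2 fold change was 0.12 ± 0.26 (adjusted p = 0.845). Tnc, Fbln2 and Dcn had log2 fold changes of 1.36 ± 0.51, 1.33 ± 0.53 and 0.84 ± 0.31 that did not pass, although Tnc did without PbKO UUO replicate 3 (adjusted p = 0.0363).

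Between obstructed kidneys 7 of the 8 tested members fell in PbKO, by 1.66-fold (Bgn) to 2.32-fold (Fbn1), where 6.58% of 10923 genes were called lower. Fbln2 was the one that did not pass. Fn1, Fbn1, Sparc and Thbs1 separated completely with PbKO lower, 4 of 8 against a background of 9.15%.

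Fbn1 held 80.4, 56.8, 67.5 and 110.1 CPM in the 4 PbWT UUO libraries and 23.4, 32.5, 29.1 and 42.9 CPM in the 4 PbKO UUO libraries, with every PbKO library lower. The log2 fold change was -1.21 ± 0.24 (adjusted p = 0.000678), and it stayed called in all 16 fits without 1 library (-1.41 to -1.03). Fn1 held 179, 190.4, 161 and 248 CPM in PbWT and 97.1, 109, 70.1 and 90.5 CPM in PbKO, again without overlap (-1.10 ± 0.20, adjusted p = 0.000255). Fbln2 held 10.6, 18.3, 16.6 and 6.82 CPM and 6.70, 8.97, 6.84 and 10.9 CPM, which overlapped (-0.66 ± 0.34, adjusted p = 0.185).

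Among the matricellular genes, Thbs1 held 67.3, 132, 107 and 101 CPM in PbWT and the values given above in PbKO, so that its PbKO UUO level overlapped the contralateral range (20.0 to 50.3 CPM in PbWT CL). Its log2 fold change was -1.11 ± 0.22 (adjusted p = 0.000865). Sparc held 476, 489.5, 481 and 667 CPM in PbWT and 375, 278, 208 and 373 CPM in PbKO, without overlap (-0.80 ± 0.20, adjusted p = 0.00526). Tnc held 53.0, 45.5, 47.7 and 37.0 CPM and 46.9, 22.4, 8.55 and 24.2 CPM, where PbKO replicate 1 lay among the PbWT values (-1.10 ± 0.35, adjusted p = 0.027). Its call ended in 5 of the 16 fits without 1 library (PbWT UUO replicates 1 to 3 and PbKO UUO replicates 2 and 3, adjusted p 0.00825 to 0.158). Postn, which was not tested, held 3.35, 6.73, 3.42 and 5.46 CPM in PbKO, every library below the PbWT values given above.

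Of the proteoglycan genes, Dcn held 104, 88.7, 96.7 and 126 CPM in PbWT and 40.2, 34.8, 41.9 and 91.3 CPM in PbKO, with PbKO replicate 4 inside the PbWT range (-0.93 ± 0.26, adjusted p = 0.0124). Its call ended without PbKO UUO replicate 2 or replicate 3 (highest adjusted p = 0.0684). Bgn held 326, 265, 206 and 284 CPM and 258, 101, 127 and 194 CPM, also with overlap (-0.73 ± 0.25, adjusted p = 0.046), and lost its call in 9 of the 16 fits (adjusted p 0.0115 to 0.198). Lum, at 0 to 7 counts in PbKO and 6 to 16 in PbWT UUO libraries, was not tested.

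Without TMM factors the median log2 fold change over all genes in this comparison moved from -0.02 to -0.29, and the share of called genes that were higher from 64.7% to 20.8%. The members' median moved with it, from -1.01 to -1.28, so that it lay below the all-gene median under both, and 8 of 8 were then called. With the 12 groups in 1 fit, 2 of these 8 members were called (Fn1 and Thbs1) and all 8 were lower, while calls over all genes went from 2034 to 322. Fitted on the obstructed kidneys alone, without the contralateral libraries whose Pdgfb level went against the label, 7 of these 8 were called, again without Fbln2. Postn also passed the filter of that fit, through its level in PbWT UUO, and is not counted. The share of all genes called lower is not given for that fit or for the fit without TMM, so neither count is set against a background. The fibroblast and pericyte sum was 375 to 968 CPM in PbKO UUO and 1086 to 1488 CPM in PbWT UUO, the macrophage sum 156 to 186 and 214 to 317 CPM, and the tubule sum 5950.0 to 9103 and 3334 to 4106 CPM, none of which overlapped. The endothelium sum was 76.1 to 131 CPM in PbKO UUO (median 85.0) and 123 to 166 CPM in PbWT UUO (median 134), with overlap. Gli1 was at 0 in all 4 PbKO UUO libraries. The platelet sum was 11.1 to 50.2 and 14.8 to 26.3 CPM. Their part in the result was not tested, nor was that of the mixed Xist and Y-linked counts.

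The UUO response itself differed between PbKO and PbWT for 2 of 8 members, against 1.90% of genes called lower. They were Thbs1 (log2 difference -1.36 ± 0.35, adjusted p = 0.0147) and Fn1 (-1.04 ± 0.32, adjusted p = 0.0443). Thbs1 lost the call in 1 of 16 fits without 1 library (PbKO CL replicate 4) and Fn1 in 11 of 16 (adjusted p 0.0199 to 0.242). Fbn1 (-1.21 ± 0.45, adjusted p = 0.102), Dcn (-0.96 ± 0.42) and Sparc (-0.76 ± 0.29) were below an unadjusted p of 0.05 and did not pass, except Dcn without PbKO UUO replicate 4 (adjusted p = 0.0145) and Sparc without PbWT CL replicate 2 (0.0395). Without TMM factors the all-gene median of this difference was -0.29, the share of called genes that were higher moved from 77.9% to 31.8%, and 4 of 8 members were called. No member was called with libraries thinned to the shallowest of the arm or with all 12 groups in 1 fit, where calls over all genes fell too. In contralateral kidneys no member was called and none was below an unadjusted p of 0.05, with log2 fold changes from -0.90 ± 0.57 (Fbln2) to 0.25 ± 0.27 (Thbs1).

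**Figure D5:**
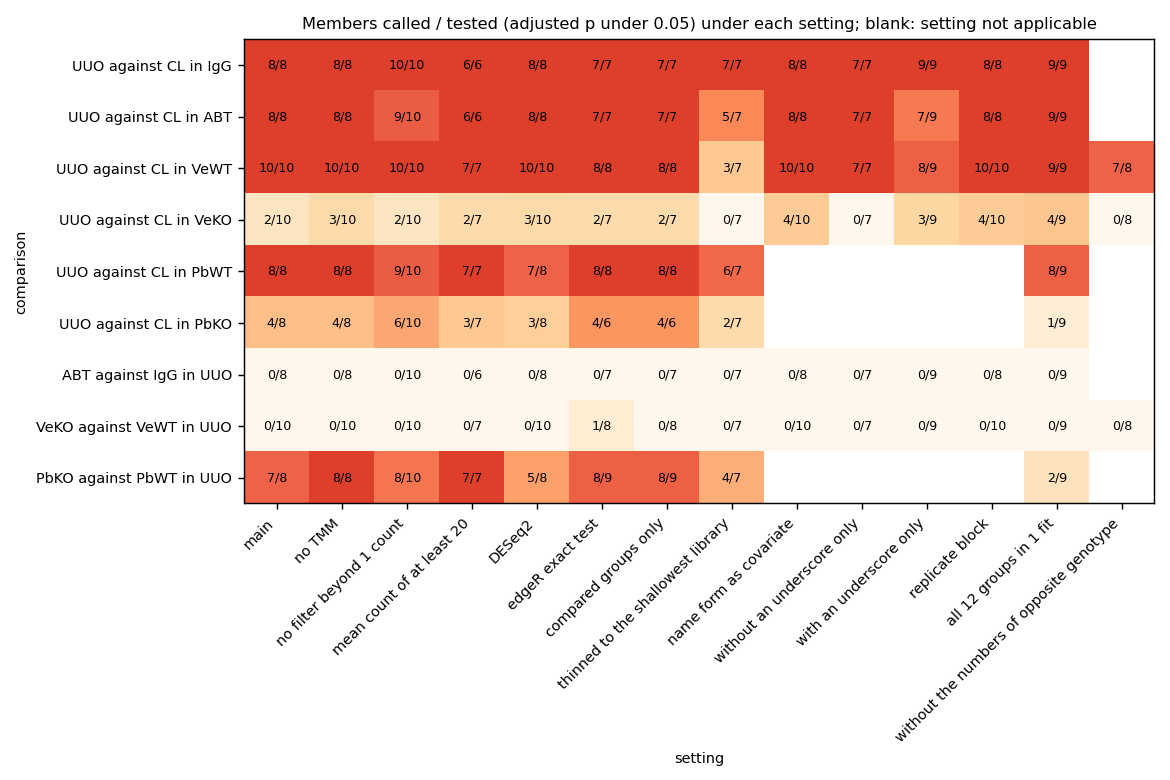
Number of members called of those tested in 9 comparisons (rows) under each processing setting (columns), darker where a larger share was called. The control groups stay near full counts in most settings, VeKO responses range from 0 to 4, and ABT against IgG in UUO stays at 0.

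Side by side in the obstructed kidneys, the levels in the 3 control groups lay close together for some genes and apart for others. Fn1 averaged 179.7 ± 33.5, 238 ± 30.5 and 195 ± 37.8 CPM in IgG, VeWT and PbWT UUO, Fbn1 78.5 ± 23.4, 66.4 ± 35.5 and 78.7 ± 23.1 CPM, and Dcn 101 ± 27.0, 105 ± 31.6 and 104 ± 15.9 CPM, differences within the SDs for Fbn1 and Dcn. Bgn was 251 ± 96.5, 364 ± 72.4 and 270.4 ± 49.5 CPM. In CL, Bgn averaged 71.6 ± 23.2 CPM in IgG and 138 ± 55.0 CPM in VeWT. These arms were scaled separately and hold different mice, so no test was made between them.

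Across the 12 groups, each member was set beside the genes whose pattern was most like its own. Over 7819 genes tested in all 3 arms with a mean of at least 20 CPM, Sparc was most like Col1a2 and Col3a1 (Pearson r of the group means of log2(CPM + 1), 0.996 and 0.992) and Fbn1 like Col1a2 (0.991) and Clic1 (0.990). Bgn was most like Sept2 (0.984) and Col4a2 (0.980), Fn1 like Cfi (0.987) and Tubb5 (0.984), Dcn like Ctps (0.989) and F2r (0.985), Tnc like Ctsc (0.979) and Tpm4 (0.972), Thbs1 like Sema5a (0.983) and Tns3 (0.974), Postn like Tep1 (0.971) and Fstl1 (0.964), and Fbln2 like Nid2 (0.948) and Ccna2 (0.946). Lum had the weakest matches, Smoc2 (0.863) and Map3k20 (0.859). The 12 points share the split between UUO and CL, and Col1a2 and Col3a1 are also among the fibroblast and pericyte markers.

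Of the other matrix genes listed beside the members (84 in the table, in 5 lists of proteoglycan, elastic fibre, matricellular and glycoprotein genes), 34 were tested in the ABTAA arm, and UUO raised 20 and lowered 2 in IgG. In VeWT 23 of 47 tested rose and 3 fell, and in PbWT 20 of 39 rose and 2 fell. The corresponding counts were 18 and 0 in ABT, 7 and 2 in VeKO, and 8 and 0 in PbKO. Between obstructed kidneys none was called in ABT against IgG or VeKO against VeWT, and 15 of 39 were lower and 1 higher in PbKO than in PbWT. As a background, 16.3%, 10.0% and 17.9% of all genes rose in IgG, VeWT and PbWT, and 12.6%, 4.47% and 3.94% in ABT, VeKO and PbKO. Genes that fell numbered 1740 and 1197 of 9579 in IgG and ABT, and 999 and 414 of 11916 in VeWT and VeKO. In PbWT and PbKO they numbered 2119 and 264 of 10923. Between PbKO and PbWT UUO 6.58% of genes were lower and 1315 of 10923 higher. Median log2 fold changes of the listed genes in ABT, VeKO and PbKO UUO against their controls were -0.09, -0.45 and -0.56.

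The matricellular list had the largest share of calls in IgG and PbWT, with 8 of 9 tested genes raised in IgG (median 1.85), 8 of 11 in VeWT and 8 of 9 in PbWT. Spp1, the secreted adhesion protein osteopontin of injured tubules, went from 2791 ± 525 to 20909 ± 7464 CPM in IgG (2.92 ± 0.24, adjusted p = 1.43e-11). Tgfbi, a TGF-β-induced adhesion protein, rose in PbWT (log2 fold change 2.28 ± 0.19) and was lower in PbKO UUO than in PbWT UUO (58.3 ± 14.7 against 124 ± 21.1 CPM, -1.08 ± 0.17, adjusted p = 8.52e-05). Sparcl1, a relative of Sparc, was lower in PbKO UUO (-1.15 ± 0.22, adjusted p = 0.000467), and its UUO response differed by -1.22 ± 0.33 on the log2 scale (adjusted p = 0.0217). Ccn4 was lower there too (-1.07 ± 0.28). Tnn, tenascin N, was the gene that fell, with log2 fold changes of -4.27 ± 0.75 in VeWT and -4.85 ± 0.82 in VeKO, from 13.6 ± 13.5 and 17.2 ± 20.1 CPM in CL to under 1 CPM on average in UUO. Its CL level carried it past the filter, so a fall was favoured and these values are a description. The SDs in CL were as large as the means or larger.

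Among elastic fibre and microfibril genes, 6 of 9 rose in IgG, 8 of 14 in VeWT and 5 of 11 in PbWT. Mgp, matrix Gla protein, which inhibits calcification, rose from 157 ± 72.4 to 1436 ± 779 CPM in IgG (3.20 ± 0.34), and Efemp2, fibulin 4, rose in all 6 groups, with log2 fold changes from 1.26 (PbKO) to 2.22 (PbWT). In PbKO UUO 5 of 11 were lower than in PbWT UUO, among them Fbln7 (-1.31 ± 0.34), Fbln1 (-1.06 ± 0.36) and Efemp2 (-0.82 ± 0.26). Of the hyaluronan-binding and basement membrane proteoglycans, Agrn, agrin, rose in all 6 groups, with log2 fold changes from 0.51 (PbKO) to 1.31 (PbWT), and its response differed between PbKO and PbWT (-0.80 ± 0.21, adjusted p = 0.0147). Of 11 other leucine-rich proteoglycan genes, 1 to 4 were tested in an arm and none was called in any comparison. The remaining matrix glycoproteins were mixed. Nid1, nidogen, rose in PbWT (1.49 ± 0.21) and was lower in PbKO UUO (-0.89 ± 0.20), while Vwa1 fell in UUO in PbWT (-1.80 ± 0.24) and was higher in PbKO UUO than in PbWT UUO (30.3 ± 4.79 against 12.2 ± 1.10 CPM, 1.28 ± 0.25, adjusted p = 0.000651).

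Of 17 receptor genes whose products bind matrix proteins, 15 were tested in the first 2 arms and 14 in the third, and 10 rose in IgG, 8 in VeWT and 9 in PbWT. Cd44, a hyaluronan receptor, had the largest change, from 1.74 ± 1.80 to 55.5 ± 21.8 CPM in IgG (4.68 ± 0.42), and it also rose in VeKO (4.58 ± 0.59, adjusted p = 7.58e-06) and PbKO (3.18 ± 0.49). Tlr2, to which biglycan is known to bind, rose in all 6 groups, with log2 fold changes from 2.15 (PbKO) to 4.45 (VeKO). In PbKO UUO 6 of 14 receptors were lower than in PbWT UUO, among them Sdc3 (-1.21 ± 0.32) and Lrp1 (-0.86 ± 0.18), and Cd36, a receptor for thrombospondin 1 that tubules and fat also express, was higher (0.99 ± 0.31). Of 19 genes that build glycosaminoglycan chains, 8 to 15 were tested and at most 3 were called in any comparison. Against CL, 0 of 8 were higher in IgG, 2 of 8 in ABT, 1 of 15 in VeWT, 0 of 15 in VeKO, 2 of 13 in PbWT and 0 of 13 in PbKO, where 16.3%, 12.6%, 10.0%, 4.47%, 17.9% and 3.94% of all genes were. Genes called included Dse, the epimerase that makes dermatan sulfate, raised in PbWT (1.90 ± 0.40) and lower in PbKO UUO (-1.47 ± 0.37, adjusted p = 0.00557), and Fam20b, a xylose kinase, lower in UUO in IgG (-0.51), ABT (-0.62), VeKO (-0.60) and PbKO (-0.61).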

How the data were processed

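RNA of whole kidneys was made into Smart-seq3 libraries, each sample in 4 wells whose reads the authors merged. Per the labels and the study's methods, reads were aligned to mm10 with STAR 2.7.3a, duplicates were removed with UMI-tools 1.1.4 and genes were counted with featureCounts (Subread 1.4.6-p5). The deposited table holds the authors' raw counts per gene, not normalized, and depth (172827 to 2341800 counts per library) sets the precision of low genes such as Lum and Postn.

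Counts were fitted per arm over its 4 groups with edgeR 4.0.16 (filterByExpr, TMM, quasi-likelihood F-test), and p-values were adjusted by Benjamini-Hochberg over every gene fitted in that arm (threshold 0.05). The study's own test, edgeR's exact test, was run as an alternative. CPM values are counts scaled by the TMM-adjusted library total. Intervals are 95% intervals from the SE. The script was tested on simulated data. The members and gene lists were chosen with earlier results of these data known. Genes other than members were named as the up to 3 called genes of a list with the largest log2 fold change in a comparison, and as the 2 genes of highest correlation with a member. Tnn was among them, and Havcr1, Xist, Y-linked genes, Ptprb and Pdgfb checked the labels. The labels do not tie libraries to mice, and the study's methods count 7 VeWT mice where 8 VeWT UUO libraries carry that label, so whether these 8 come from separate mice cannot be told. In the ABTAA arm, libraries with numbers 9, 11 and 12 were taken as pairs, since CL and UUO libraries of the same number deviated together (r = 0.44, 0.24 and 0.19 over 8473 genes, where different numbers had a median of -0.07 over 46 pairs), and a replicate block changed no member's call there (8 of 8 in IgG and in ABT). All 3 numbers lie in ABT. Alternatives were no TMM, 2 other filters, DESeq2 1.42.0, the exact test, the compared groups alone, thinning to the shallowest library, library-name form as a covariate or subset, the replicate block, omission of the opposite-genotype numbers, all 12 groups in 1 fit and omission of each library. Low members fell below the filter in some of these omissions. In the Veptp arm Lum was fitted in 17 of 29 and Postn in 23 of 29. Fbln2 was fitted in 27 of 30 in the ABTAA arm and in 13 of 16 in the Pdgfb arm.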

Additional observations from a re-analysis of the deposited data

Results flagged for a closer look

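Among 120 pairs of member and group, 11 held 1 library far from the others of its group by Dixon's test, where chance flags about 1 in 20. Tnc was 0 CPM in VeKO UUO replicate 2, where the other 7 libraries held 9.47 to 38.7 CPM. Fbln2 was 0 CPM in VeKO UUO replicate 1 (others 3.72 to 12.6 CPM) and 0 CPM in PbKO CL replicate 3 (others 3.85 to 5.02 CPM). Postn was 4.74 CPM in IgG UUO replicate 1 (others 12.2 to 24.5 CPM), 4.59 CPM in VeKO CL replicate 5 and 3.99 CPM in PbKO CL replicate 4, the others of the last 2 groups being at 0. Dcn was 161 CPM in IgG UUO replicate 5 (others 75.8 to 105 CPM), and Sparc 667 CPM in PbWT UUO replicate 4 (others 476 to 489.5 CPM). Thbs1 was 23.4 CPM in PbKO UUO replicate 1 (others 47.0 to 53.8 CPM). Fbn1 was 4.44 CPM in IgG CL replicate 4 (others 9.65 to 16.9 CPM) and 40.6 CPM in ABT UUO replicate 1 (others 56.7 to 70.4 CPM). Several of these values rest on 0 to 7 counts.

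The UUO response differed between PbKO and PbWT, by an interaction term of edgeR's quasi-likelihood fit, for Fn1 (log2 difference -1.04, adjusted p = 0.0443) and Thbs1 (-1.36, adjusted p = 0.0147). All 4 PbKO CL and all 4 PbWT CL libraries lay within 23.4 to 54.5 CPM for Fn1, and the Pdgfb level of the PbKO CL libraries went against their label.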

How the results depend on the processing

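Thinning each library to the shallowest of its arm lowered the number of members called in UUO against CL to 5 in ABT, 3 in VeWT, 0 in VeKO and 2 in PbKO, to 4 in PbKO against PbWT in UUO, and to 0 for the PbKO response. Calls over all genes fell with them, to 406, 182, 29, 92, 580 and 194. The VeKO count of 2 became 4 with library-name form as a covariate, 4 with a replicate block, 4 with all 12 groups in 1 fit, and 0 among libraries without _ in their names or without the opposite-genotype numbers. Calls over all genes in VeKO moved alike, from 947 to 2561, 2435, 1793, 0 and 108. VeKO against VeWT in UUO had 1 member called in the edgeR exact test, and the VeKO response 1 among libraries without _ and 1 with all 12 groups in 1 fit. With all 12 groups, 1 member was called in PbKO, 2 in PbKO against PbWT in UUO and 0 for the PbKO response (over all genes from 694 to 125, 2034 to 322 and 935 to 10), which had 4 without TMM and 4 without a filter. Leaving out 1 library gave 7 to 8 calls in IgG and in ABT, 8 to 10 in VeWT, 1 to 3 in VeKO, 7 to 9 in PbWT, 2 to 5 in PbKO, 4 to 8 in PbKO against PbWT in UUO and 0 to 3 for its response, and 0 in the other comparisons. The cause of these changes was not tested, apart from fewer counts, samples or genes where the setting removes them.

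Some log2 fold changes of UUO against CL, between obstructed kidneys and between responses turned sign. In ABT against IgG in UUO these were Tnc (0.054 in libraries with _ in their names), Bgn (0.11) and Fbln2 (-0.015) with the replicate block, Fbln2 over single-library omissions (-0.071 to 0.27), and Thbs1 (0.21 thinned and 0.018 in libraries without _). In VeKO UUO against CL they were Tnc (-0.41) and Vwa1 (0.36) in libraries without _, Lum over single-library omissions (-0.46 to 0.42, the latter without VeKO CL replicate 5) and Thbs1 thinned (-0.16). Among differences in response in the Veptp and Pdgfb arms they were Postn in VeKO over single-library omissions (-0.72 to 3.06, the latter without VeKO CL replicate 5), Tnc in PbKO thinned (0.60), and Fbln2 in PbKO without TMM (-0.054) or over single-library omissions (-0.026 to 0.40, the former without PbKO CL replicate 3). Signs also turned in comparisons without a call: 5 of 8 members turned under some setting for the response in ABT against IgG (without 1 library, Dcn at -0.44 to 0.12, Bgn at -0.0063 to 0.25 and Fbln2 at -0.51 to 0.17), and in contralateral kidneys 5 of 8 for ABT, 5 of 10 for VeKO and 5 of 8 for PbKO (Fn1 at -0.37 to 0.095 without 1 library). Of the other log2 fold changes of members and named genes, 1761 kept their direction and side of the threshold under a setting other than leaving out a library, 157 lost and 19 gained a call. In the Veptp arm the 8 shared numbers gave r = 0.06 to 0.43, all above the median of -0.03 for different numbers, and 10 of 16 libraries correlated best with their own number. Because 1 number fell under 0.1 and 4 carry opposite genotypes, they were not taken as pairs, and the replicate block there is given for its counts alone. It left VeWT at 10 members called (from 2194 to 3544 genes in all), and, Lum and Postn aside, members below an unadjusted p of 0.05 went from 8 to 6 in VeKO against VeWT in UUO, from 6 to 4 for the response and from 1 to 0 in CL. In the ABTAA arm the block moved such members from 0 to 2 in UUO and from 2 to 1 in CL, and the block changed no count of members called other than that of VeKO by more than 1.5 times.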

Other observations

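Within VeKO CL, replicates 2 and 5 differed from the other 4 libraries in several members. Replicate 2, high in Havcr1, held 389.5 CPM of Sparc (others 84.1 to 174.5 CPM), 118 CPM of Fn1 (others 22.5 to 63.4 CPM) and 27.2 CPM of Fbn1 (others 3.96 to 11.6 CPM), with a fibroblast and pericyte sum of 792 CPM (others 141 to 343 CPM). Replicate 5 held the highest Dcn (79.9 CPM), Lum (9.18 CPM) and Tnc (34.9 CPM) of its group and the highest sums of fat and urothelium markers, 494 and 163 CPM. Lum, not tested in the Pdgfb arm, averaged 6.30 ± 4.61 CPM in PbKO CL and 2.14 ± 2.40 CPM in PbKO UUO (SD, n = 4 each, overlapping), where in PbWT it averaged 3.20 ± 2.88 CPM in CL and 6.67 ± 2.39 CPM in UUO.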
